A study of Drosophila melanogaster with 18 samples.

Results

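Drosophila larvae in the fifth generation of DNMT3L expression (Tub-3L G5, 2 arrays) were set against larvae of the same line in the fourth generation (Tub-3L G4, 2 arrays). These 4 arrays were taken by their sample titles from the 18 arrays, in 9 groups, of the whole series, and G5 larvae collected for their phenotype (Tub-3L G5P) were kept out of the comparison. Each array gave a log2 signal for 16322 probe sets, a probe set being the group of probes that reads 1 transcript, and all of them were compared. A gene symbol could be given to 2392 probe sets, which stand for 2249 genes, and the other 13930 carry no name here.

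Both groups were described as larvae of the last instar, the stage before pupation. In them a UAS transgene for mammalian DNMT3L, with a FLAG tag, was switched on by tubulin-GAL4, a driver active in nearly all cells. A single transgenic line was used, homozygous and self-crossed in each generation, so G4 and G5 differ in the number of generations spent under the driver and also in the time of collection. Tub-3L G1 and Tub-3L G2 were earlier generations of this genotype, Tub-3L G5P were G5 larvae with melanotic tumors, and UAS-3L G1 and UAS-3L G5 carried the transgene with no driver. The series also holds w1118, the parent strain of the transgenic line, and 2 arrays of larvae freed of the tubulin driver (titled G20* but described as G5, so the generation is not settled), which enter only the estimate of spread. RNA came from pools of whole larvae, their sex and hours of age are not given in the sources used here, and every group had 2 arrays labelled as biological replicates, so the p-values measure only the spread between such pools. No probe set was named for DNMT3L, and its level was not read.

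DNMT3L is a mammalian partner of the de novo DNA methyltransferases that also binds the tail of histone H3. The fly genome holds neither DNMT3L nor those methyltransferases. Such a larva consists mainly of larval organs, such as the gut, fat body, salivary glands, body wall muscle and blood cells, most of which are broken down or rebuilt at metamorphosis, and of imaginal cells that will form the adult. Seminal fluid proteins, egg shell proteins and flight muscle proteins belong to adult organs.

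The step from the fourth to the fifth generation was mostly a loss. A probe set was called when its adjusted p was under 0.05 (limma on all 18 arrays, Benjamini-Hochberg over 16322 probe sets) and its mean differed by 2-fold or more. By this rule 761 probe sets were called (4.66% of those tested), 706 of them lower (4.33%) and 55 higher (0.337%) in Tub-3L G5, so 92.8% of calls were lower. The losses were also the deeper changes. In Tub-3L G5, 236 probe sets were lower by 4-fold or more and 23 by 16-fold or more, whereas 0 were higher by 4-fold. In all 761 both Tub-3L G5 arrays lay outside the range of the Tub-3L G4 arrays. The call rule itself makes such a separation likely, and its share among all 16322 probe sets was not counted. The plot of the 16322 probe sets shows the called losses spread along the whole range of signal and the called gains mostly at its dim end.

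**Figure D1:**
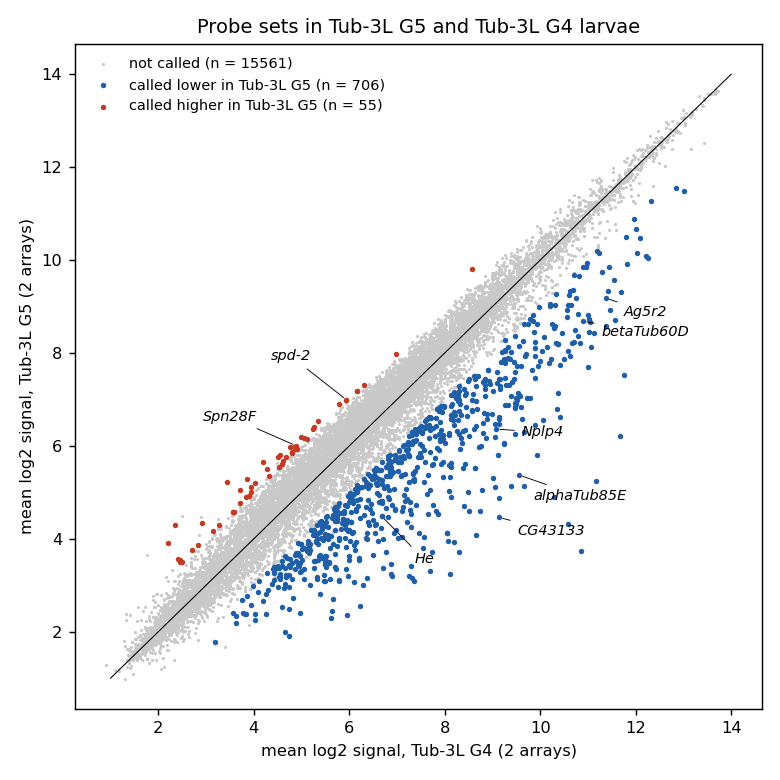
Mean log2 signal of each probe set in Tub-3L G5 (vertical axis) and Tub-3L G4 (horizontal axis), 2 arrays each, with equal levels on the diagonal. The 706 probe sets called lower reach far below the diagonal, up to a 140.4-fold difference, and the 55 called higher stay close above it.

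Small differences ran the other way. With the test alone and no fold limit, 2275 probe sets were higher (13.9%) and 1744 lower (10.7%) in Tub-3L G5, and the median difference of all probe sets was 0.08 on the log2 scale. Among named genes 13.9% were higher and 9.65% lower, and these shares are the background for the gene lists below. Scaling the arrays to the 2 named cytoplasmic ribosomal protein genes, RpL27 and RpLP0, moved the median of all probe sets to 0.28 and changed the split of calls to 284 higher and 565 lower, or 66.5% lower. RpL27 itself differed by -0.35 (adjusted p = 0.082) and RpLP0 by -0.03 (adjusted p = 0.811). Fewer cells of a type and less RNA in each cell cannot be told apart in RNA from whole larvae, and this holds for every gene described here.

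The deepest losses were of probe sets with no name: 18210490 read 3.71 and 3.74 in Tub-3L G5 against 10.87 and 10.85 in Tub-3L G4, a 140.4-fold difference, and 18184789 was 77.0-fold lower. Of the 761 called probe sets, 681 had no name. The 80 with a name stand for 79 genes, 71 lower and 8 higher.

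The labelled stage was checked against tissue markers, and markers of adult organs moved with the step. The summed linear signal of 5 named adult male gland markers was 2343 to 2353 in Tub-3L G5, against 1423 to 1464 in Tub-3L G4 and 29.6 to 39.4 in UAS-3L G5. All 5 were higher in Tub-3L G5 by the test. The other adult sets and the testis set were also higher in sum, and 0 of their markers fell by the test. The sum of 5 ovary markers was 4746 to 4898 in Tub-3L G5 against 2845 to 2970 in Tub-3L G4. That of 4 photoreceptor markers was 3747 to 4030 against 2447 to 2501, and that of 2 flight muscle markers 5742 to 6289 against 4089 to 4130. The sum of 4 testis markers was 1839 to 1844 in Tub-3L G5 against 1199 to 1216 in Tub-3L G4. It was already 702 to 704 in UAS-3L G5 and 1246 to 1302 in Tub-3L G2, so the testis set does not mark adult stage here. By the test, 4 of the 5 ovary markers and all 4 testis markers were higher, and 0 of the photoreceptor and flight muscle markers were. The wider lists of these last 2 tissues were mixed. Of 12 named genes of adult flight and thoracic muscle, 1 was higher and 2 lower, with a median of 0.24. Of 22 named genes of phototransduction and eye pigment, 4 were higher and 2 lower, with a median of 0.33. The larval sets ran lower. The 6 glue genes of the larval salivary gland summed to 3448 to 3847 in Tub-3L G5 against 4452 to 4583 in Tub-3L G4, the 3 named larval gut markers to 592 to 593 against 903 to 933, and the 3 named blood cell markers to 298 to 306 against 390 to 417. In UAS-3L G5 the glue sum was 21429 to 22705, the gut sum 437 to 495 and the blood cell sum 657 to 687. The gut sum in Tub-3L G5 was thus still above that of UAS-3L G5. None of the 6 larval fat body markers had a name here. No marker of any set was at 0, since the array gives every probe set a signal. The part of these shifts in the results that follow was not tested.

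The largest loss of a gene of known function was that of alphaTub85E, an alpha-tubulin of developing muscle, of the epidermal cells to which muscles attach and of the testis. It read 5.46 and 5.28 in Tub-3L G5 against 9.62 and 9.51 in Tub-3L G4. The arrays of each group lay close together and the groups did not overlap, an 18.3-fold fall (log2 difference -4.19 ± 0.13 SE, adjusted p = 9.69e-10). Before the step its level had gone up: the mean was 7.31 in Tub-3L G1, 8.87 in Tub-3L G2 and 9.56 in Tub-3L G4, and then 5.37 in Tub-3L G5, which was below the 6.26 of UAS-3L G5. The testis genes of the array did not share this fall, as given below.

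Several other called losses are described together here for their known roles in attachment, matrix or ectoderm. They belong to no list fixed for the comparison, and they and the other called genes outside the 15 largest losses were picked after their values were seen. betaTub60D, a beta-tubulin of developing muscle and attachment cells, read 8.70 and 8.66 in Tub-3L G5 against 10.94 and 10.87 in Tub-3L G4, a 4.67-fold fall (adjusted p = 1.20e-09). ect, named for its expression in the ectoderm, read 4.47 and 4.73 in Tub-3L G5 against 7.74 and 7.87 in Tub-3L G4, 9.23-fold lower. Mmp2, a matrix metalloproteinase that remodels tissue, read 7.42 and 7.33 in Tub-3L G5 against 8.77 and 8.80 in Tub-3L G4, 2.66-fold lower, and tnc, a matrix protein that binds integrin, was 2.74-fold lower. Ndg, the basement membrane linker nidogen, was 2.07-fold lower, and the prolyl 4-hydroxylase subunits PH4alphaPV and PH4alphaMP were 2.31-fold and 2.11-fold lower. Each of these genes had both Tub-3L G5 arrays below both Tub-3L G4 arrays, as did every called loss. The contractile genes of larval muscle changed less: of 7 named members of that list 4 were lower and 0 higher, with a median of -0.40, and the 4 were Act87E (-0.51), Msp300 (-0.49), Mp20 (-0.40) and Prm (-0.40). With the ribosomal scaling 0 of the 7 stayed lower and 1 was higher.

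**Figure D2:**
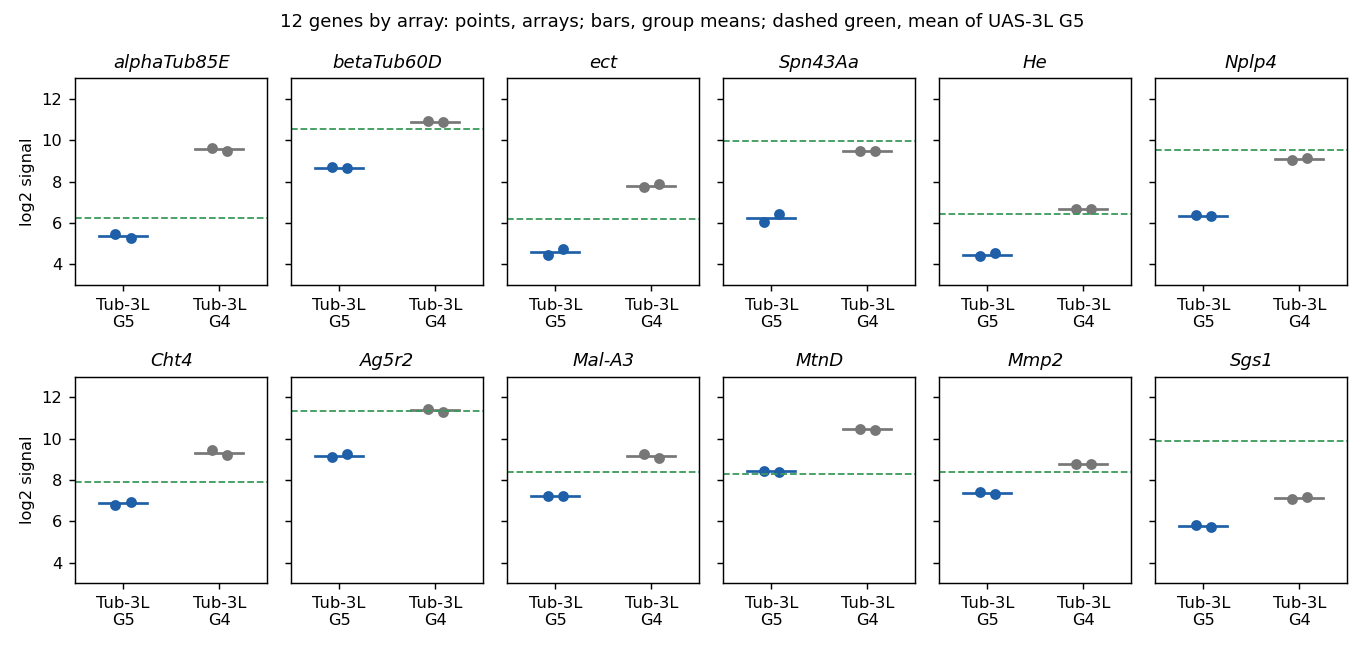
Log2 signal of 12 genes on each of the 2 Tub-3L G5 arrays (blue) and the 2 Tub-3L G4 arrays (grey), with bars for the group means and a dashed line for the mean of UAS-3L G5. In every panel the blue points lie below the grey, and the gap is widest for alphaTub85E.

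Genes of blood cells and of melanization were lower. Drosophila blood cells, or hemocytes, engulf and encapsulate foreign bodies and make the enzymes of melanization, and melanotic tumors are masses of such cells. The study reports more hemocytes in G5 Tub-3L larvae, with or without tumors, than in UAS-3L larvae. That comparison is not the step from G4 to G5. Of 12 named members of the list, 5 were lower and 0 higher, with a median of -0.40 against 0.08 over all probe sets (3 lower with the ribosomal scaling or without either Tub-3L G5 array or Tub-3L G4 replicate 1). Spn43Aa, a serine protease inhibitor, read 6.07 and 6.43 in Tub-3L G5 against 9.47 and 9.47 in Tub-3L G4, 9.35-fold lower (log2 difference -3.23 ± 0.12 SE, adjusted p = 2.46e-09). He, which encodes Hemese, a surface protein of blood cells, read 4.42 and 4.53 in Tub-3L G5 against 6.67 and 6.70 in Tub-3L G4, 4.62-fold lower (adjusted p = 5.82e-08). The scavenger receptor genes Sr-CI (-0.90) and Sr-CIV (-0.77) and the peroxidasin gene Pxn (-0.50) fell by less than 2-fold. In Tub-3L G5P, the larvae with tumors, the mean of He was 2.48 and that of Spn43Aa 3.74. Both were below the Tub-3L G5 arrays, and a test of that difference is not reported here. Adenosine signalling, which in Drosophila larvae acts on blood cell number, had both an enzyme and its receptor among the losses. Adgf-A, a secreted adenosine deaminase whose loss is known to cause melanotic tumors in Drosophila larvae, read 7.11 and 7.15 in Tub-3L G5 against 8.48 and 8.40 in Tub-3L G4, 2.48-fold lower, and AdoR, the adenosine receptor, read 5.31 and 5.50 in Tub-3L G5 against 6.93 and 6.81 in Tub-3L G4, 2.77-fold lower. et, a negative regulator of JAK/STAT signalling, was 2.28-fold lower. The immune genes moved less: DptB, an antibacterial diptericin, was the 1 of 5 named immune-induced peptide genes past the test (-0.77), and among 12 recognition and signalling genes GNBP3 (-0.88), which senses fungal glucans, and PGRP-SB1 (-0.35) were lower and nec (0.32) higher.

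Chitin and gut genes followed. Cht4, a chitinase, read 6.81 and 6.94 in Tub-3L G5 against 9.44 and 9.22 in Tub-3L G4, 5.47-fold lower, and Cht10, another chitinase, was 3.57-fold lower at 5.73 and 5.99 in Tub-3L G5 and 7.59 and 7.80 in Tub-3L G4. In all, 4 of 8 named chitin genes were lower and 0 higher, the other 2 being the imaginal disc growth factors Idgf1 (-0.31) and Idgf3 (-0.37). The 1 named larval cuticle gene, Lcp65Ag2, was also lower (-0.86, adjusted p = 0.00122). Among the carbohydrases of the gut the family divided. Mal-A4 and Mal-A3, neighbouring maltase genes, read 5.92 and 5.88 in Tub-3L G5 against 7.96 and 7.79 in Tub-3L G4 for the first and 7.22 and 7.23 in Tub-3L G5 against 9.24 and 9.07 in Tub-3L G4 for the second, falls of 3.93-fold and 3.82-fold. The amylases Amy-d (-1.40) and Amy-p (-0.59) and Mal-A2 (-0.58) also fell, whereas Mal-A7 (0.52) and Mal-B2 (0.49) rose, making 5 lower and 2 higher of 12 named with a median of -0.11 (0.08 with the ribosomal scaling). Digestive proteases were lower in 3 of 4: Ser6 (-0.78), kappaTry (-0.74) and yip7 (-0.40). Vha100-4, a subunit of the proton pump, was 2.93-fold lower.

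The named metallothionein genes, for small proteins that bind copper and other metals, were lower. MtnB read 3.73 and 3.22 in Tub-3L G5 against 5.68 and 5.48 in Tub-3L G4, MtnD 8.46 and 8.38 in Tub-3L G5 against 10.46 and 10.44 in Tub-3L G4 and MtnE 3.88 and 3.91 in Tub-3L G5 against 5.56 and 5.75 in Tub-3L G4, which are falls of 4.31-fold, 4.09-fold and 3.39-fold. MtnA fell by less (-0.38, adjusted p = 0.0235; not past the test with the ribosomal scaling), and so did the copper importer gene Ctr1B (-0.77). Thus 5 of 8 named genes of metal handling were lower and 0 higher, with a median of -0.58. MtnE and MtnD had their highest Tub-3L mean in the fourth generation, which the median of the 8 genes did not (8.12 in Tub-3L G2, 7.99 in Tub-3L G4 and 8.01 in Tub-3L G5). MtnE averaged 3.45 in Tub-3L G2, 5.65 in Tub-3L G4 and 3.89 in Tub-3L G5, against 3.42 in UAS-3L G5, and MtnD averaged 8.88, 10.45 and 8.42 in the same generations, against 8.30 in UAS-3L G5.

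In the fat body list all 3 named members were lower: Ance (-0.98), a secreted peptidase, Mtp (-0.57), which loads lipid onto lipoproteins, and apolpp (-0.37), the precursor of the main lipid carrier of the blood. Cytochrome P450 genes, whose enzymes oxidise hormones, foods and toxins, had shares near those of all named genes: of 41 named, 5 were lower and 7 higher, with a median of 0.09. With any 1 array left out 5 to 7 were lower and 1 to 3 higher. Cyp304a1 read 5.27 and 5.18 in Tub-3L G5 against 7.23 and 7.25 in Tub-3L G4, 4.03-fold lower, and Cyp12e1 was 2.49-fold lower, whereas the largest rises were of Cyp313a1 (0.86) and Cyp4d21 (0.75). Glutathione S-transferases were higher in 5 and lower in 2 of 19, led by GstD9 (0.79) and GstE9 (0.64) on one side and GstD7 (-0.91) and GstD10 (-0.81) on the other. Sodh2, a sorbitol dehydrogenase, read 6.35 and 6.36 in Tub-3L G5 against 8.42 and 8.43 in Tub-3L G4, 4.19-fold lower.

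Some other losses were of genes for secreted proteins, picked after their values were seen or by their size. Ag5r2, a secreted protein of the antigen 5 family, read 9.11 and 9.26 in Tub-3L G5 against 11.45 and 11.31 in Tub-3L G4, 4.58-fold lower. Nplp4, the precursor of a small neuropeptide-like molecule, read 6.37 and 6.35 in Tub-3L G5 against 9.03 and 9.14 in Tub-3L G4, 6.6-fold lower (log2 difference -2.72 ± 0.10 SE, adjusted p = 2.94e-09). Most neuronal genes did not move with it, since of 30 named 2 were lower, Nplp4 and elav (-0.52), and 1 was higher, nAChRalpha4 (0.57). The odorant-binding proteins, small secreted carriers, had 7 lower and 7 higher of 43 named, against 9.65% lower and 13.9% higher among all named genes. With any 1 array left out 5 were lower and 1 to 2 higher. Obp56h, Obp49a and Obp83g were 2-fold lower or more (-1.21, -1.12 and -1.03; Obp56h -1.01, adjusted p = 0.128, without Tub-3L G4 replicate 1), and Obp56f and Obp22a rose most (0.85 and 0.85). Diedel2 read 4.33 and 4.28 in Tub-3L G5 against 6.54 and 6.54 in Tub-3L G4, 4.72-fold lower.

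The first losses by size, however, were of genes known by an annotation number. CG43133 read 4.17 and 4.76 in Tub-3L G5 against 9.17 and 9.12 in Tub-3L G4, 25.6-fold lower, CG43153 5.49 and 4.78 in Tub-3L G5 against 9.36 and 9.39 in Tub-3L G4, 18.9-fold lower, and CG43179 3.82 and 4.41 in Tub-3L G5 against 7.99 and 8.10 in Tub-3L G4, 15.3-fold lower. CG43085, CG43125 and CG43315 differed by -3.81, -3.73 and -3.53 on the log2 scale. The arrays of each group nearly coincided for CG43085, at 6.60 and 6.61 in Tub-3L G5 and 10.44 and 10.39 in Tub-3L G4. Others among the 15 largest losses were CG17362 (9.37-fold), CG43896 (6.72-fold), CG11350 (6.16-fold) and CG8492 (5.23-fold). Of 184 named genes with a number beginning CG43, 18 were called lower and 3 higher, which is 11.4%. Among all 2249 named genes 79 were called, and among all probe sets 4.66%. This grouping was made after the calls were seen. The course of CG43133 was like that of alphaTub85E. It averaged 7.90 in Tub-3L G1, 8.48 in Tub-3L G2, 9.14 in Tub-3L G4, 4.46 in Tub-3L G5 and 3.55 in Tub-3L G5P. Without the driver it averaged 6.14 in UAS-3L G1 and 6.27 in UAS-3L G5.

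Genes that follow larval time were measured too. The steroid ecdysone times the end of larval life. Oatp74D, which carries ecdysone into cells, read 6.75 and 6.56 in Tub-3L G5 against 8.28 and 8.14 in Tub-3L G4, 2.94-fold lower. The ecdysone receptor gene EcR (-0.54) and the nuclear receptor gene Hr3 (-0.75) were lower and Hr38 (0.69) was higher, and the other 5 of 8 named ecdysone genes did not pass the test. chinmo, a transcription factor of young neural and imaginal cells, read 5.98 and 5.78 in Tub-3L G5 against 7.04 and 7.06 in Tub-3L G4, 2.25-fold lower. Of the salivary glue genes, which are switched on late in the last instar, 3 of 6 were lower and 0 higher. Sgs1 read 5.85 and 5.73 in Tub-3L G5 against 7.10 and 7.17 in Tub-3L G4, 2.53-fold lower, while Sgs3 (-0.49, adjusted p = 0.0427) and Sgs8 (-0.36, adjusted p = 0.0114) fell by less. With the ribosomal scaling 1 of the 6 was past the test. The part of larval age in the step was not tested.

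The gains were smaller. Of the 55 probe sets called higher 8 had a name, and at the test alone the lists of the reproductive organs and of DNA replication had many members higher. Seminal fluid genes rose in 11 of 15 named and fell in 1, with a median of 0.69 (6 to 9 higher with any 1 array left out, 6 without Tub-3L G5 replicate 2). Spn28F, a serine protease inhibitor of the accessory gland and the only member past 2-fold, read 5.97 and 6.04 in Tub-3L G5 against 4.91 and 4.87 in Tub-3L G4 (log2 difference 1.12 ± 0.18 SE, adjusted p = 7.91e-04). Acp36DE, a seminal protein needed for sperm storage, read 10.48 and 10.52 in Tub-3L G5 against 9.81 and 9.86 in Tub-3L G4, and Acp76A read 6.49 and 6.28 in Tub-3L G5 against 5.67 and 5.45 in Tub-3L G4. These genes were near the floor of the array without the driver, with means in UAS-3L G5 of 1.76 for Spn28F, 2.98 for Acp36DE and 2.93 for Acp76A, so most of their rise lay before the fifth generation. The 1 that fell, Spn42Da (-0.44), is a serine protease inhibitor and had a mean of 8.71 in UAS-3L G5.

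Testis genes rose in 12 of 20 named, with 0 lower and a median of 0.56 (7 to 9 higher with any 1 array left out, 7 without Tub-3L G4 replicate 2). Pp1-Y2, a phosphatase gene on the Y chromosome, read 5.25 and 5.16 in Tub-3L G5 against 3.92 and 4.11 in Tub-3L G4, 2.27-fold higher. The sperm tail genes Mst84Da (0.74), Mst84Dc (0.61) and Mst98Ca (0.54), the sperm aminopeptidase gene S-Lap2 (0.65, adjusted p = 1.20e-04) and betaTub85D (0.54), the beta-tubulin of the male germ line, all rose. betaTub85D read 9.31 and 9.38 in Tub-3L G5 against 8.79 and 8.81 in Tub-3L G4, the opposite direction to alphaTub85E.

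Female germ line genes rose as well. orb, an RNA-binding regulator of oocyte translation, was higher by 0.84 on the log2 scale (adjusted p = 2.48e-05), and zpg, the germ line gap junction gene, read 8.33 and 8.32 in Tub-3L G5 against 7.68 and 7.69 in Tub-3L G4. In the germ line list 4 of 9 were higher and 0 lower (2 with any 1 array left out), and in the vitelline membrane list 3 of 5 were higher, Vm34Ca (0.71), Vm26Aa (0.69) and dec (0.49). The piRNA genes del (0.70), Nxf3 (0.73) and qin (0.58) rose, 3 of 4 named. With 1 array left out the list median was 0.58 to 0.68 for the piRNA genes and 0.61 to 0.77 for the vitelline membrane genes. In most of these fits fewer members of both lists passed the test. Of 14 female meiosis genes 2 were higher, mei-218 (0.57) and c(2)M (0.67).

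DNA replication genes rose in 13 of 25 named, with 0 lower and a median of 0.41. PolA2, a subunit of DNA polymerase alpha, read 6.51 and 6.66 in Tub-3L G5 against 6.16 and 5.91 in Tub-3L G4, and dpa, a subunit of the replicative helicase, read 8.52 and 8.60 in Tub-3L G5 against 8.12 and 8.18 in Tub-3L G4. Orc2 (0.52) and Orc1 (0.53), of the origin recognition complex, also rose. Among 8 mitosis genes gwl (0.77), a mitotic kinase, and APC7 (0.65) were higher. spd-2, which encodes a centrosome protein, was called at 6.81 and 7.17 in Tub-3L G5 against 6.04 and 5.84 in Tub-3L G4, 2.08-fold higher. The replication-dependent histone genes, 21 named of which many read the same copies, had 0 members past the limma test in either direction, 0 at an unadjusted p under 0.05 by limma or by an ordinary t-test, and a median of 0.09 (7 higher with the ribosomal scaling). With any 1 of the 4 arrays left out, 3 to 5 of the 25 replication genes passed the test, and 87 to 101 of the 162 list members that passed it in all.

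Mitochondrial respiration genes were higher in 5 of 14 and lower in 0, with a median of 0.30 (12 higher with the ribosomal scaling, and 1 to 4 with any 1 array left out, 1 without either Tub-3L G4 array), among them ATPsynbeta (0.30) and mAcon1 (0.32). The other named gains past 2-fold were CG33060 at 5.49 and 5.51 in Tub-3L G5 against 4.23 and 4.32 in Tub-3L G4, CG43094 at 4.83 and 4.98 in Tub-3L G5 against 3.73 and 3.92 in Tub-3L G4, Ir47a, an ionotropic receptor, at 3.28 and 4.21 in Tub-3L G5 against 2.80 and 2.63 in Tub-3L G4, CG43137 at 3.72 and 3.30 in Tub-3L G5 against 2.61 and 2.40 in Tub-3L G4 and CG43091 at 5.32 and 5.87 in Tub-3L G5 against 4.73 and 4.45 in Tub-3L G4. All lay below the median signal of the arrays (6.33 to 6.39 on these 4), and Ir47a and CG43137 also below the lower quartile of 4.55 to 4.57. Several of these calls were lost with 1 array left out: without Tub-3L G5 replicate 2 the difference was 0.57 for Ir47a (adjusted p = 0.146) and 0.73 for CG43091 (adjusted p = 0.221), without Tub-3L G5 replicate 1 it was 0.80 for CG43137 (adjusted p = 0.17), and without Tub-3L G4 replicate 1 it was 1.09 for Pp1-Y2 (adjusted p = 0.0546).

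**Figure D3:**
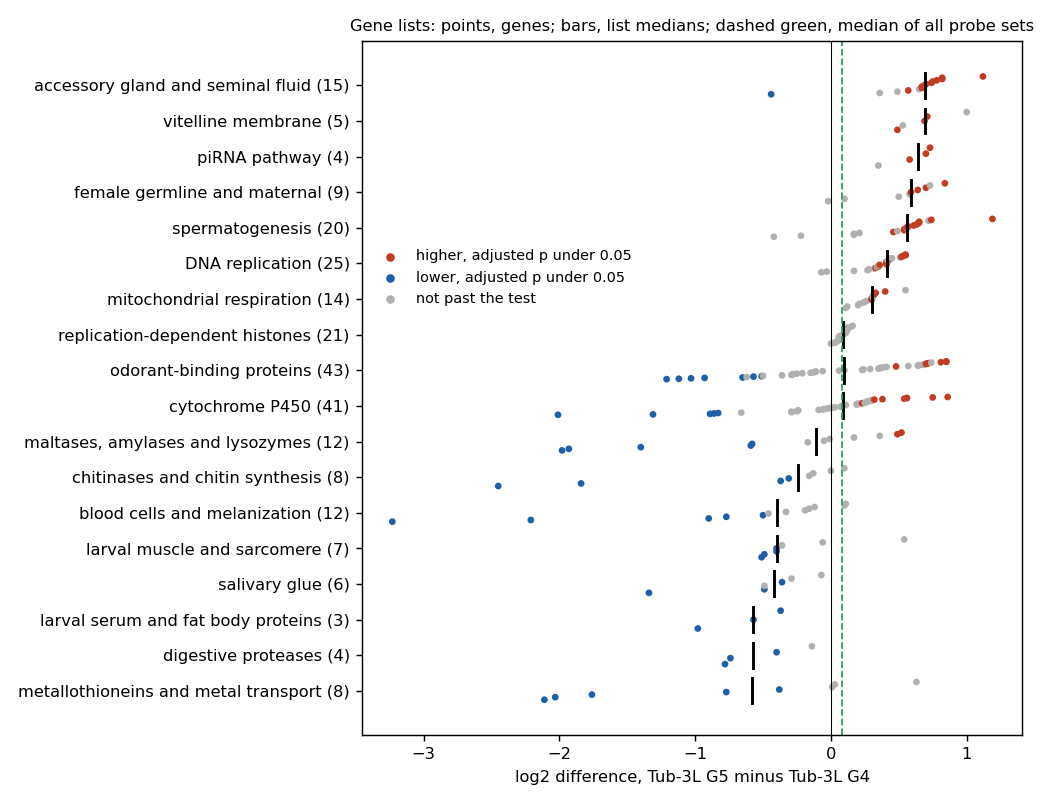
Log2 difference of Tub-3L G5 minus Tub-3L G4 for each named gene of 18 gene lists (points; red higher and blue lower at adjusted p under 0.05, grey not past the test), with list medians as bars and the median of all probe sets, 0.08, as a dashed line. The reproductive and replication lists lie to the right, and the list medians from chitinases down to metallothioneins lie between -0.24 and -0.58.

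Other lists had few or no members past the test. Of 164 named adult chemosensory receptors 3 were higher and 1 lower, smaller shares than the 13.9% and 9.65% of all named genes, with a median of 0.02. Their median signal was 2.47 in Tub-3L G4 and 2.49 in Tub-3L G5, below the lower quartile of the arrays. The small shares therefore do not show that these genes were stable. By limma 0 genes passed in the heat shock list (4 named, median 0.23), in insulin and growth signalling (8 named, 0.13), in the proteasome (5 named, 0.07) and in the Polycomb and Trithorax group (5 named, 0.10). At an unadjusted p under 0.05 these 4 lists had 2, 0, 0 and 1 genes by limma and 2, 2, 0 and 0 by an ordinary t-test. Of the chromatin and other genes that the study discusses by name, 4 could be read. Kdm4A, a histone demethylase, read 8.29 and 8.23 in Tub-3L G5 against 7.75 and 7.85 in Tub-3L G4 (log2 difference 0.46, adjusted p = 0.0144). Su(var)3-3, another demethylase, differed by 0.38 (adjusted p = 0.0702), E(z), the Polycomb methyltransferase, by -0.14 (adjusted p = 0.389) and mamo by 0.10 (adjusted p = 0.597). Of these only Kdm4A passed the test in the fit of all 18 arrays. Su(var)3-3 passed it with the ribosomal scaling, with a trended robust prior variance, and when the dimmest 25% were left out. Kdm4A passed with Tub-3L G4 replicate 2 left out but not with any other of the 4 arrays left out.

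The probe sets called lower kept a steady median up to the fourth generation. In groups outside the contrast, whose arrays entered the calls only through the estimate of spread, the median level of the 706 probe sets was 7.68 in UAS-3L G1, 7.43 in UAS-3L G5, 7.59 in Tub-3L G1 and 7.63 in Tub-3L G2. It was 7.26 in Tub-3L G4 and 5.35 in Tub-3L G5, which the rule itself set apart, and 4.25 in Tub-3L G5P. The 55 probe sets called higher ran at 3.57 in UAS-3L G5, 3.39 in Tub-3L G1 and 3.51 in Tub-3L G2, then at 4.51 in Tub-3L G4 and 5.60 in Tub-3L G5, and at 4.41 in Tub-3L G5P.

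**Figure D4:**
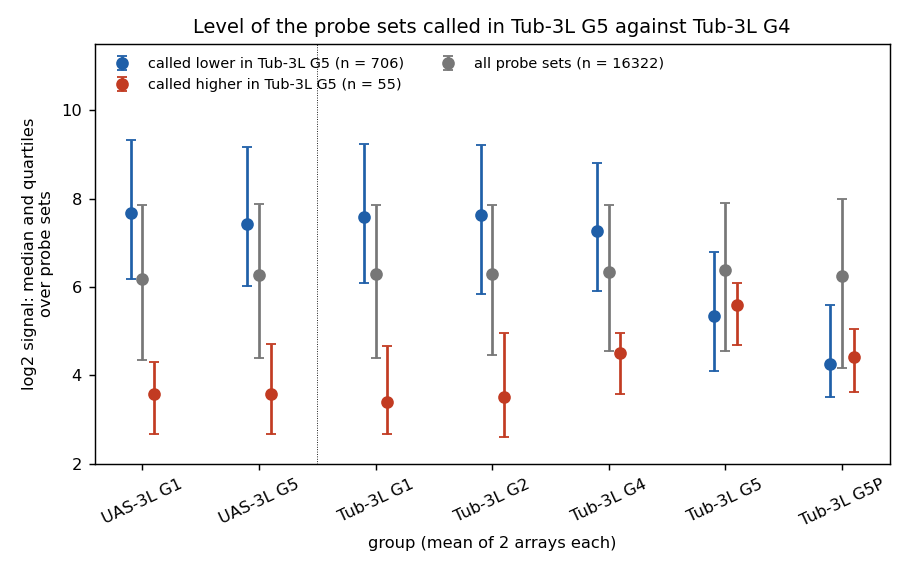
Median log2 signal, with quartiles as bars, of the probe sets called lower (blue, 706), called higher (red, 55) and of all 16322 (grey), by group (means of 2 arrays). The blue median stays between 7.26 and 7.68 up to Tub-3L G4 and is 5.35 in Tub-3L G5, and the red median is above its earlier levels from Tub-3L G4 on.

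Larvae without the driver also changed over generations, and the step was tested against that drift. The step minus the difference between UAS-3L G5 and UAS-3L G1 passed the same call rule for 1091 probe sets (6.68%), 820 with a more negative and 271 with a more positive step. With the ribosomal scaling the split was 607 negative and 813 positive. By the test alone 2847 probe sets passed (17.4%), and so did 63 of the 79 called genes, 59 of 71 losses and 4 of 8 gains. The called genes were chosen for a large step on the same arrays, so their high share was largely set by that choice. For alphaTub85E the drift was 0.25 and the difference -4.44 ± 0.19 SE (adjusted p = 3.09e-08), for betaTub60D 0.46 and -2.68 (adjusted p = 1.56e-08), and for Spn43Aa 0.20 and -3.43 (adjusted p = 9.17e-08). CG11350 was an exception among the deep losses, with a drift of -2.20 beside its step of -2.62 and a difference of -0.42 (adjusted p = 0.271). Vha100-4 (drift -1.06), Ndg (-0.61), chinmo (-0.66), Amy-d (-0.66) and PH4alphaPV (-0.83) likewise fell without the driver and were not shown to differ from it. By the test alone, step minus drift passed for 402 of 2249 named genes. Of the 4 piRNA genes 0 passed, with a median drift of 0.41 beside a median step of 0.64. For larval muscle it was 0 of 7 (-0.39 and -0.40) and for digestive proteases 0 of 4 (-0.43 and -0.57). For DNA replication it was 2 of 25 (0.16 and 0.41). Seminal fluid genes had 6 of 15 (-0.04 and 0.69) and mitochondrial respiration genes 10 of 14 (-0.34 and 0.30). The drift spans generations 1 to 5 and the step only 4 to 5, and UAS-3L larvae of the fourth generation were not analysed here.

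**Figure D5:**
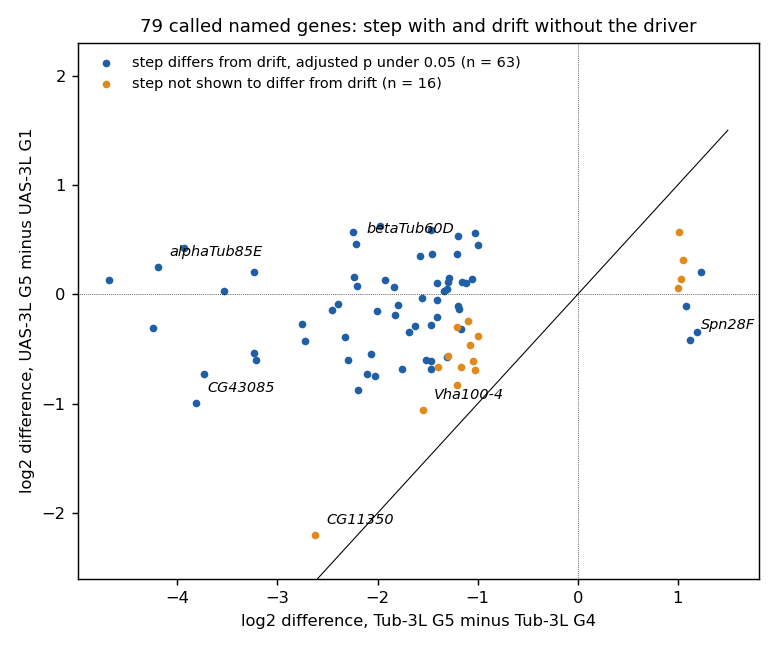
Log2 difference of Tub-3L G5 minus Tub-3L G4 (horizontal axis) and of UAS-3L G5 minus UAS-3L G1 (vertical axis) for the 79 called named genes, with equal differences on the diagonal. Blue marks the 63 genes whose step differed from the drift by the test and orange the other 16, and the deepest losses lie near 0 on the vertical axis except CG11350 at -2.20.

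The step was also unlike the one before it. The step from G4 to G5 minus the step from G2 to G4 passed the call rule for 1838 probe sets (11.3%), 1009 negative and 829 positive (832 negative and 1176 positive with the ribosomal scaling). Several called genes had been higher in G4 than in G2 and then fell. Picking them for opposite steps largely set the difference between their steps. Diedel2 averaged 4.26 in Tub-3L G2, 6.54 in Tub-3L G4 and 4.30 in Tub-3L G5, with a difference between the steps of -4.52 ± 0.45 SE (adjusted p = 2.55e-05). ect averaged 6.12, 7.81 and 4.60 in these generations (difference -4.89, adjusted p = 8.65e-07), and CG43315 5.69, 7.57 and 4.04 (difference -5.42, adjusted p = 4.82e-08). Other genes were already lower in G4 than in G2. Cht10 averaged 9.08, 7.69 and 5.86 and its steps were not shown to differ (-0.45, adjusted p = 0.275). Spn28F rose more in the earlier step, by 3.20, than in this one (difference -2.08, adjusted p = 5.81e-04). Both steps use the Tub-3L G4 arrays, so an error in these arrays enters them with opposite sign.

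Some called genes lay beside each other. Of 486 pairs of adjacent protein-coding genes that were both named here, in the gene order of RefSeq, both were called in 4 and 1 of the pair in 39. Among all 2249 named genes 79 were called, and whether 4 pairs are many was not tested. The 4 pairs were Mal-A3 and Mal-A4, CG11350 and CG13722, MtnE and MtnD, and CG43125 and CG43124. The maltase pair and the metallothionein pair are each of 1 gene family. In each pair both genes were lower, by -1.93 and -1.98, -2.62 and -1.41, -1.76 and -2.03, and -3.73 and -2.33.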

How the data were processed

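Total RNA from pools of whole larvae was hybridised by the authors to Affymetrix Drosophila Gene 1.1 ST arrays, 2 per group. The deposited values are log2 signals per probe set, made by the authors with robust multi-array averaging in Affymetrix Expression Console 1.3 (background correction, quantile normalization and a summary over the probes of each set), which can hide a shift shared by most genes. A second deposited table of 9 group averages, whose columns could not be tied to groups, was not used. Precision is limited by the number of arrays. Duplicate arrays differed by a median of 0.129 in Tub-3L G5 and 0.118 in Tub-3L G4, and the array medians ran over 6.17 to 6.39 in the series.

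Gene symbols came from the array annotation, were checked against RefSeq (Drosophila melanogaster Release 6 plus ISO1 MT, names and gene order only), and were given only to probe sets with 1 symbol. Where a symbol had several probe sets, as 50 had, the one with the highest mean was used. No sequences or coordinates are shown, since no genome of the array's build was used here.

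All 16322 probe sets were fitted with limma 3.58.1 (R 4.3.3), with a mean for each of the 9 groups over 18 arrays (9 residual and 2.71 prior degrees of freedom) and Benjamini-Hochberg adjustment. The call rule was an adjusted p under 0.05 and 2-fold. List members were counted at an adjusted p under 0.05. The fit was tested on simulated data. Named genes were the 15 largest increases (8 reached the call) and the 15 largest decreases among called genes whose groups did not overlap, up to 3 genes of smallest p in each list, and the genes that the study discusses. Other genes were chosen after their values were seen. The comparison, the 54 gene lists (50 with a named member) and the tests were chosen with earlier results of these data known.

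Alternatives were the 4 arrays alone, an ordinary t-test at p of 0.05 as in the study's one-way analysis, 3 other scalings, leaving out the dimmest 25% of probe sets or those without 1 symbol, other fold limits, a trended robust prior, a replicate block, and leaving out each array. The same numbers in the labels do not pair the samples.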

Additional observations from a re-analysis of the deposited data

Results flagged for a closer look

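Both tests of a difference between steps stood out by the number of probe sets that passed. The step from G4 to G5 with the driver differed from the drift between UAS-3L G5 and UAS-3L G1 for 1091 probe sets, and it differed from the step between G4 and G2 for 1838. Within the text, 7 named genes passed the call rule in both steps with opposite signs. In each the difference between the steps was also past the test, an outcome that this choice of genes had largely fixed.

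Of these, 6 were higher in Tub-3L G4 than in Tub-3L G2 and then fell. The later step minus the earlier one was -5.42 for CG43315, -4.89 for ect, -4.52 for Diedel2, -3.97 for MtnE, -3.61 for MtnD and -3.13 for MtnB. The metallothionein genes MtnE, MtnD and MtnB were thus part of this group, and so was 1 gene expressed in ectoderm. CG43137 ran the other way, with 2.25, and lay below the lower quartile of the arrays in both generations. Since both steps share the Tub-3L G4 arrays, the difference is not independent of either of them.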

How the results depend on the processing

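The 706 probe sets lower in Tub-3L G5 stayed within 1.5 times that number in all but 4 alternatives, and the 55 higher ones moved more often. With an ordinary t-test and Benjamini-Hochberg adjustment 49 were lower and 0 higher, against 675 and 39 at its unadjusted p under 0.05. A limit of 3-fold left 359 lower and 3 higher, no fold limit gave 1744 and 2275, and probe sets with 1 symbol gave 72 and 8. Higher calls numbered 34 with arrays centred on their median, 284 with the ribosomal scaling and 18 without the dimmest 25% of probe sets. Leaving out 1 array gave 68 to 83 higher and 689 to 718 lower calls. Of the 79 called genes, 63 stayed called whichever array was left out, and 7 of the other 16 lost the test itself.

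The count of steps that differed from the drift, 1091, became 727 with the adjusted t-test, 426 at 3-fold, 2847 with no fold limit and 123 among probe sets with 1 symbol, and 1000 to 1066 with 1 array left out. The count for the step before, 1838, became 853, 887, 2828 and 248 under the same settings, and 1314 to 1696 with 1 array left out. The 162 list members past the test became 3 with the adjusted t-test and 87 to 101 with 1 array left out. With 1 array left out of a group, the lone array was assumed to vary like the other groups.

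The replicate block gave 704 lower and 55 higher calls, 1080 against the drift, 1817 against the step before and 160 list members. With the block, Sgs3 and dec no longer passed the test, and no other gene in the text changed. Arrays with the same number did not deviate together (Pearson r = 0.00656 between the replicate differences of Tub-3L G5 and Tub-3L G4, across probe sets), so the labels share only a number. APC7, Cyp313a1, GstD9, Hr38, Nxf3, Orc1, PGRP-SB1, Sgs3, Sr-CIV, apolpp, c(2)M and zpg lost the test whichever of the 4 arrays was left out, and 29 to 35 of the 127 genes of the text lost it without a given array. No gene of the text changed its direction in any alternative while past the test. The causes of these changes were not tested.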
